A study of Mus musculus with 6 samples.

Results

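The genes described here build the extracellular matrix, the protein scaffold around cells, and the basement membrane, the thin sheet of matrix under epithelia and around vessels and muscle. The set holds 48 listed mouse genes, chosen by name for their place in the matrix and grouped by role into fibrillar collagens, other collagens, elastic fibre and crosslinking genes, proteoglycans, glycoproteins and basement membrane genes. Every gene probe whose accession led to a listed symbol was taken, which gave 69 probes of 47 genes among 39429 probes and 20659 named genes on the array. Col12a1 was reached by no probe. A probe was kept if both arrays of any 1 genotype showed it well above background, which left 67 probes of 46 genes. The only Col13a1 probe and 1 of 2 Fbln5 probes were not kept, and 63 of the 67 were well above background on all 6 arrays.

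The study measured total RNA of whole embryos at day 12 on 1-colour Agilent arrays, with 1 embryo on each of 6 arrays. The embryos were homozygous, heterozygous or wild type (2 each) for STAT3-K177K180R, an allele of the transcription factor gene Stat3 whose name gives arginine in place of lysine at 2 residues. According to the labels all shared the same womb, no other allele or agent is named, and how the allele was made is not given in the sources used here. A whole embryo mixes all tissues, so fewer cells of a type and less RNA per cell cannot be told apart in any value below. The labels do not describe parents or sex, and p-values measure only the spread between these embryos. The level of a probe is its log2 intensity minus the 75th percentile of its array, so that 0 is that percentile. Levels are compared between embryos for the same probe, never between probes, and differences are in log2 units ± standard error. Where a gene had several probes they are numbered by mean level, only to tell them apart.

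Fibrillar collagens assemble into the cables that give tissues tensile strength, while fibrillins, fibulins and elastin form the elastic fibres that lysyl oxidases crosslink. Basement membranes are sheets of laminin and collagen IV networks joined by nidogen and the proteoglycan perlecan, and collagens XV and XVIII sit at their border with the underlying matrix. In an embryo at this stage most of these genes are expressed by mesenchyme, with laminin and collagen IV also made by epithelia, endothelium and muscle.

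Between homozygous and wild-type embryos, 5 of the 67 matrix probes rose and 9 fell at an adjusted p below 0.05. These 14 probes belong to 12 genes. By the called probes Col5a3, Mfap5, Fbn2, Lum and Thbs2 rose and Col5a2, Col8a1, Col14a1, Sparc, Tnc, Col15a1 and Lama2 fell. The other probe of Sparc, of Col14a1 and of Fbn2 had the opposite sign and was not called. The share called was 20.9%, against 27.7% of all 29904 probes tested, and by direction 13.2% of all probes were higher and 14.6% lower. Matrix probes were therefore called no more often than probes in general. The test was limma's moderated test on 1 model of the 6 arrays, adjusted over all kept probes by the Benjamini-Hochberg method. The median difference of the 67 probes was 0.08 on the log2 scale, against 0.08 over all kept probes, and 39 of 67 (58.2%) were positive, against 55.8% of all. Homozygous and wild-type levels did not overlap in 45 of 67 probes, where 68.9% of all probes with a value on the 4 arrays did not overlap.

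The calls depended on the wild-type arrays. Without wild-type replicate 1 or without wild-type replicate 2 no matrix probe was called higher and 4 were called lower, while the share called over all probes was 8.2% and 7.12%. Col8a1, Sparc probe 2 and Col15a1 probes 1 and 2 passed in every alternative that tested them. With another background correction, normexp followed by the 75th percentile, the split was 9 probes higher and 7 lower, and the median difference of all probes moved by 0.11. With only the brightest probe of each gene, 6 of 46 matrix probes were called higher and 4 lower, where 28.9% of all such probes were called.

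No matrix probe was called between heterozygous and wild-type embryos by the same limma test, and 0.0% of all 29903 probes passed in either direction. At an unadjusted p below 0.05 there were 2 of 67 matrix probes, against 2.09% of all probes, and both were higher. Mfap5 differed by 0.58 ± 0.16 (unadjusted p = 0.0107, adjusted p = 1.0) and Col5a3 by 0.50 ± 0.20 (unadjusted p = 0.0466, adjusted p = 1.0). Small positive differences were frequent, with 54 of 67 probes above 0 (80.6%), against 51.7% of all kept probes, and a median of 0.12, against 0.01. Heterozygous levels lay above both wild-type levels in 31 probes and below both in 3, where 14.6% and 11.9% of all probes did. Heterozygous replicate 1 was higher than heterozygous replicate 2 in 62 of 67 probes (92.5%), against 58.0% of all kept probes. The median over matrix probes, relative to the wild-type mean, was 0.20 in heterozygous replicate 1 and 0.05 in heterozygous replicate 2.

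Between homozygous and heterozygous embryos 1 matrix probe rose and 10 fell. That is 16.4% of 67, against 22.7% of all probes, of which 9.56% were higher and 13.1% lower. The riser was Fbn2 probe 1, and the 10 that fell belong to Col5a2, Col8a1, Col14a1, Col16a1, Sparc, Tnc, Col15a1 and Lama2. The median difference was −0.02, against 0.07 over all kept probes. This comparison shares the homozygous arrays with the first one, and the other 2 comparisons share the wild-type arrays, so the 3 are not independent.

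**Figure D1:**
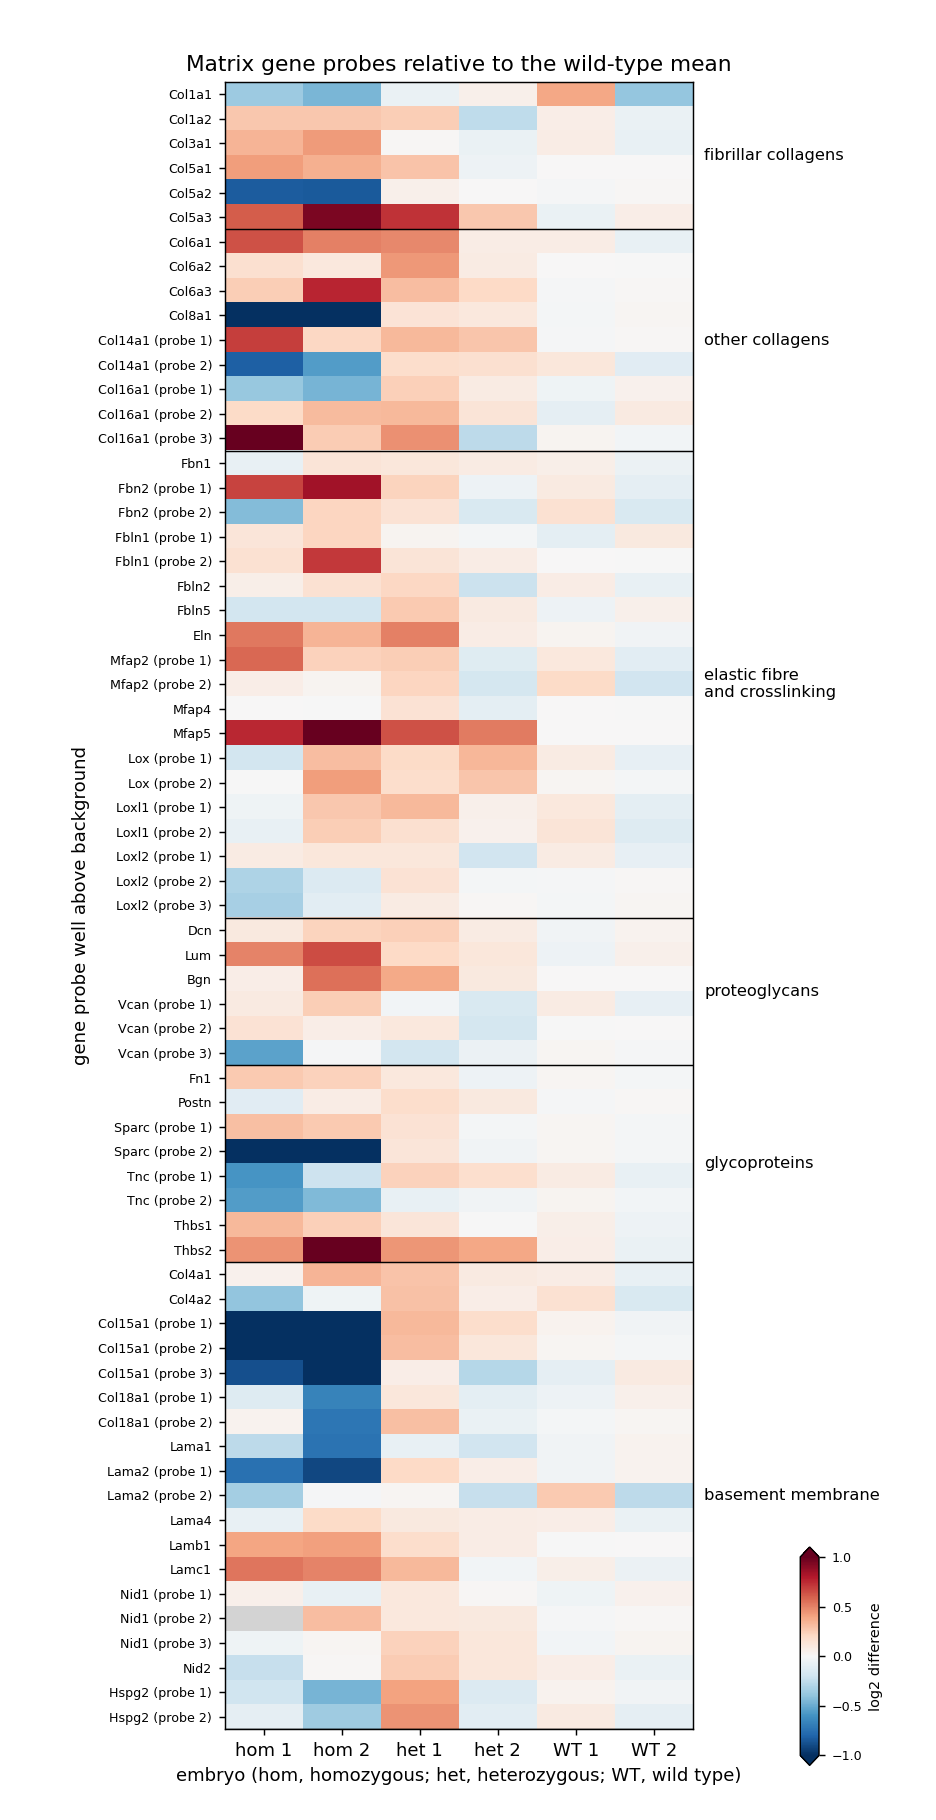
Log2 level of each of the 67 kept matrix probes (down the page, by role) in each embryo (across), as the difference from the mean of the wild-type embryos, red for higher and blue for lower, with colours ending at 1 in either direction and grey for the 1 missing value. Col8a1, Sparc probe 2 and the Col15a1 probes are dark blue in both homozygous embryos, and most probes of heterozygous replicate 1 are pale red.

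The homozygous arrays shared 1 slide and scan and the other 4 arrays shared another, so an effect of slide and one of the homozygous genotype cannot be told apart. The share of gene spots well above background was 72.0% to 74.6% on homozygous arrays, 76.0% to 78.3% on heterozygous arrays and 76.4% to 77.1% on wild-type arrays. The median negative control signal was 43.5 and 48.0 on homozygous arrays, 27.0 and 26.0 on heterozygous and 26.0 on both wild-type arrays. The 75th percentile used for scaling was 860 and 785 on homozygous, 1187 and 1263 on heterozygous and 1037 and 1067 on wild-type arrays. Summed marker levels of some other cell types lay outside the wild-type range in both homozygous embryos, and those of others overlapped it. Summed over 10 genes of embryonic mesenchyme, the level in multiples of the 75th percentile was 23.1 to 25.0 in homozygous, 30.1 to 31.4 in heterozygous and 30.9 to 33.0 in wild-type embryos. Of their 11 kept probes 1 was higher and 4 lower in homozygous than in wild-type embryos, where 13.2% of all probes were higher and 14.6% lower. Levels were summed unlogged, so bright genes weigh most in these sums. Liver and visceral yolk sac markers (7 genes, all measured) summed to 144 to 150 in homozygous, 85.9 to 104 in heterozygous and 98.5 to 104 in wild-type embryos, and 6 skeletal muscle genes to 49.8 to 51.4 in homozygous, 36.5 to 42.7 in heterozygous and 34.4 to 38.6 in wild-type embryos. The 8 endothelial genes summed to 13.8 to 14.8 in homozygous, 13.7 to 14.6 in heterozygous and 13.5 to 13.7 in wild-type embryos, and the 7 parietal endoderm genes to 6.43 to 6.50 in homozygous, 6.83 to 7.21 in heterozygous and 6.69 to 6.87 in wild-type embryos. The 8 chondrocyte genes summed to 63.8 to 69.1 in homozygous, 55.0 to 69.5 in heterozygous and 49.7 to 57.8 in wild-type embryos, and the 8 neural genes to 39.4 to 48.9 in homozygous, 38.2 to 43.9 in heterozygous and 39.6 to 43.0 in wild-type embryos. Trophoblast genes, 8 of 9 with a probe, summed to 8.27 to 17.2 in homozygous, 40.7 to 57.9 in heterozygous and 49.8 to 57.3 in wild-type embryos, and of them Ctsj, Ctsq, Prl4a1 and Tpbpa were well above background on no array. The 3 decidua genes summed to 0.061 to 0.077 in homozygous, 0.055 to 0.059 in heterozygous and 0.051 to 0.056 in wild-type embryos. Of these, Prl3c1 and Prl8a2 were well above background on no array, and the 1 kept probe was not called. The 6 erythroid genes summed to 93.4 to 113 in homozygous, 65.5 to 77.3 in heterozygous and 79.9 to 94.2 in wild-type embryos. Chondrocyte probes had a median difference of −0.131 between homozygous and wild-type embryos, opposite to their sum. Called higher and lower there were 1 and 1 of 9 chondrocyte and 1 and 1 of 7 skeletal muscle probes. They were 1 and 0 of 8 for liver and visceral yolk sac and 1 and 4 of 6 for trophoblast. Of 7 erythroid probes 0 were called. Each of the endothelial (9), neural (11) and parietal endoderm (8) lists had 0 higher and 1 lower. The part of these cell types and of the slide in the matrix results was not tested.

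Promoter windows of 5 called genes are shown because the altered protein is a factor that binds DNA. In homozygous embryos their probes fell most (Col8a1, Col15a1 and 1 of 2 Sparc probes) or rose (Col5a3, Thbs2). Each runs from 250 bases before to 50 bases after the RefSeq gene start on GRCm38.p6, 5′ to 3′ along the gene. Capitals mark the letters GGGCGG of the GC box, the letters CCAAT of the CCAAT box and the letters TATAAA of the TATA box. Both strands were searched, so these boxes can also stand reversed and complemented in capitals. The windows are chr16:57754688-57754987, minus strand for Col8a1, chr4:47207762-47208061, plus strand for Col15a1, chr11:55420031-55420330, minus strand for Sparc, chr9:20815018-20815317, minus strand for Col5a3, and chr17:14694213-14694512, minus strand for Thbs2.
Col8a1: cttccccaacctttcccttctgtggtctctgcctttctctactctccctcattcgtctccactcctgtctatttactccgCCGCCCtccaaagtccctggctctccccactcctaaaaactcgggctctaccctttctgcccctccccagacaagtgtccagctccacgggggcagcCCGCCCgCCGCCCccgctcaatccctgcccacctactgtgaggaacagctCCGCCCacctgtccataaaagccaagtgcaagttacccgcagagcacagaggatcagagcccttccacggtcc
Col15a1: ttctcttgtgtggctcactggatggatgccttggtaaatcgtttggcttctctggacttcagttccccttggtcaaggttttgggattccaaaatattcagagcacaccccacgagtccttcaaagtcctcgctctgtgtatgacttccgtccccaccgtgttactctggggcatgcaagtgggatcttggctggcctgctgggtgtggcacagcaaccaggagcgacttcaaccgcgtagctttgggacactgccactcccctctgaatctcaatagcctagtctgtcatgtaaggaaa
Sparc: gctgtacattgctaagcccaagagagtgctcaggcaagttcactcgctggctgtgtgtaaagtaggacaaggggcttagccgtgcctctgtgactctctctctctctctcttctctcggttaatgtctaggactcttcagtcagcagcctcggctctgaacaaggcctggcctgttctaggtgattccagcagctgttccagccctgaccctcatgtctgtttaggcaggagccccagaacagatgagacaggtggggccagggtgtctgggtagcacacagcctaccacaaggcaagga
Col5a3: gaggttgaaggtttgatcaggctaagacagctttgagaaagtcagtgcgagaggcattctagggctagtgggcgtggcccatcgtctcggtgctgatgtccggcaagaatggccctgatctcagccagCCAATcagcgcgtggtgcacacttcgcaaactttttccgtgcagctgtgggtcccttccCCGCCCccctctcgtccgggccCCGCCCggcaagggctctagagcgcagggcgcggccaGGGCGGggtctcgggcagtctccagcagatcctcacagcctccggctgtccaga
Thbs2: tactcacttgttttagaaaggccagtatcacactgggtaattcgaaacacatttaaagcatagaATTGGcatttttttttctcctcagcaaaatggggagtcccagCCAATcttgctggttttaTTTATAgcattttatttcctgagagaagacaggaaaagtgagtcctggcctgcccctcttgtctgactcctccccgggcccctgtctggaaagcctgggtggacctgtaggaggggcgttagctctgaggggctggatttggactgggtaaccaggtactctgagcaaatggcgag
The RefSeq table held 36 windows for 29 of the 48 genes. TTCNNNGAA, the palindrome that STAT dimers are known to bind, occurred in 0 of the 36, against 8.3% of all 32851 windows. Sites outside these 300 bases were not searched. The 19 genes without a window include the called Col5a2, Col14a1, Fbn2, Lum and Mfap5, so these few windows cannot show whether matrix genes lack such sites. The letters GGGCGG occurred in 63.9% of matrix windows and 35.7% of all. CCAAT occurred in 36.1% and 37.4%, and TATAAA in 16.7% and 13.6%. Col8a1 held GGGCGG 4 times, Col5a3 held it 3 times with 1 CCAAT, Thbs2 held 2 CCAAT and 1 TATAAA, and the windows of Col15a1 and Sparc held none of these letters.

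Among the 6 fibrillar collagen probes, 1 rose, 1 fell and 4 were not called in homozygous against wild-type embryos (33.3% called, against 27.7% of all probes). Col5a2 codes for a chain of collagen V, which seeds collagen I fibrils, and read 0.86 and 0.86 in homozygous embryos, 1.75 and 1.70 in heterozygous embryos and 1.68 and 1.71 in wild-type embryos. Both homozygous levels lay below all others, and the difference was −0.84 ± 0.12 against wild type (1.79-fold lower, adjusted p = 0.00541) and −0.87 ± 0.12 against heterozygous embryos (adjusted p = 0.00581). Col5a3, a less common chain of the same collagen, moved the other way. It read −2.34 and −2.01 in homozygous embryos, −2.22 and −2.68 in heterozygous embryos and −3.01 and −2.88 in wild-type embryos, and all homozygous and heterozygous levels exceeded both wild-type levels. The homozygous difference from wild type was 0.77 ± 0.20 (1.71-fold higher, adjusted p = 0.0342), and from heterozygous embryos 0.28 ± 0.20 (adjusted p = 0.345). The Col5a3 call was lost in 5 of 14 alternatives, which include leaving out homozygous replicate 2 or either wild-type replicate and dropping the filter on dim probes.

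Col3a1, the chain of the homotrimer collagen III of skin and vessels, read 6.30 and 6.38 in homozygous embryos, 5.98 and 5.89 in heterozygous embryos and 6.04 and 5.89 in wild-type embryos. Homozygous levels were the highest, but the difference of 0.38 ± 0.13 was not called (adjusted p = 0.074). Col5a1, the main chain of collagen V, read 4.04 and 3.97 in homozygous embryos, 3.91 and 3.57 in heterozygous embryos and 3.62 and 3.62 in wild-type embryos, a difference of 0.39 ± 0.15 that was also not called (adjusted p = 0.104). The chains of collagen I did not pass either. Col1a1 differed by −0.41 ± 0.25 (adjusted p = 0.253), with wild-type embryos at 6.52 and 5.75, a gap of 0.77 that was the widest among matrix probes in that genotype. Col1a2 differed by 0.27 ± 0.19 (adjusted p = 0.315).

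**Figure D2:**
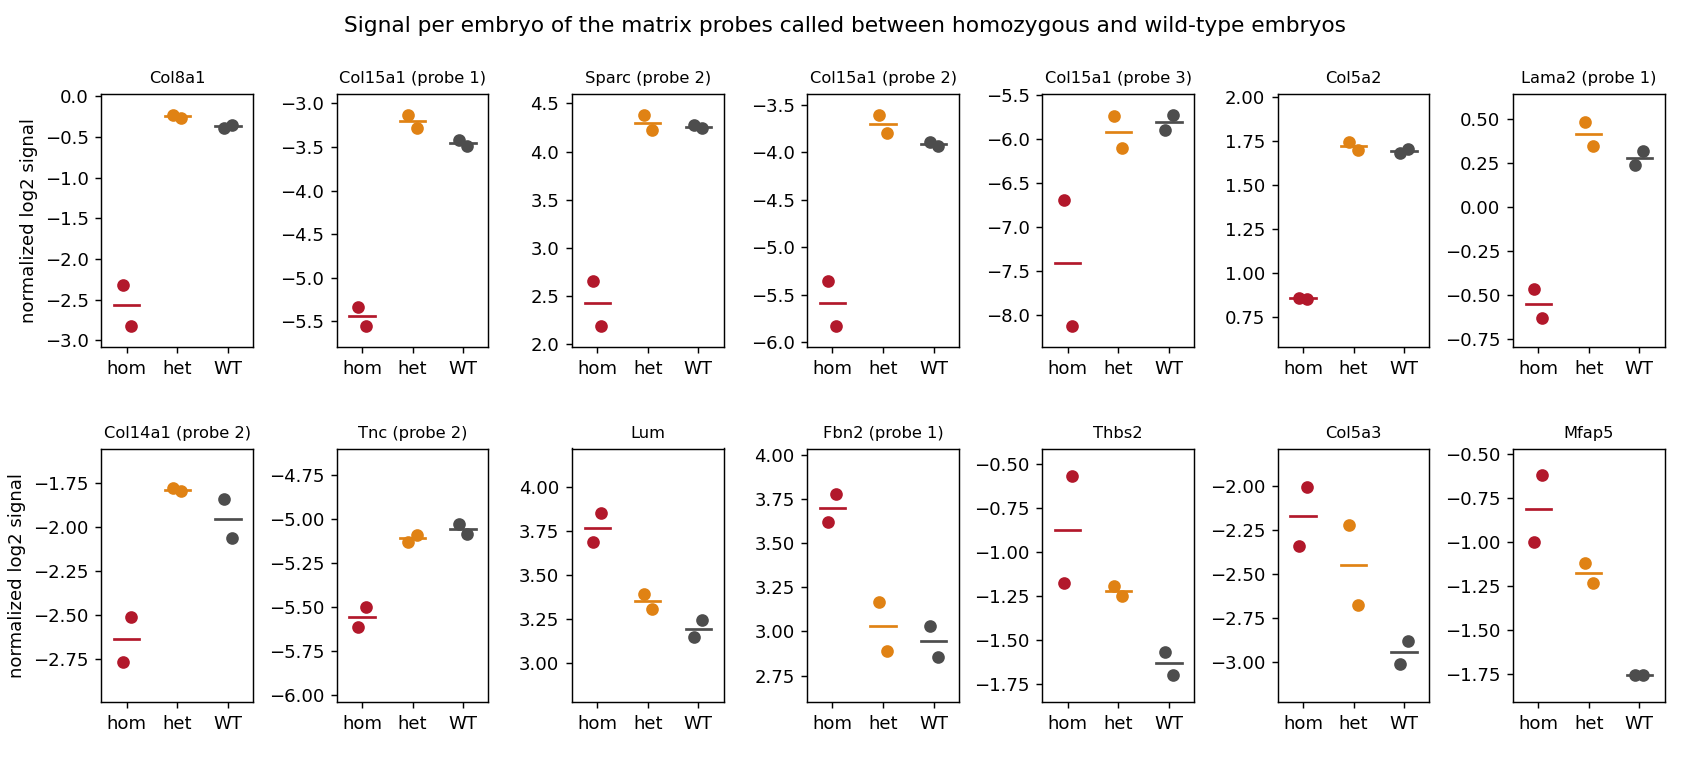
Log2 level of the 14 matrix probes called between homozygous and wild-type embryos, with a point for each embryo, a bar for the mean of each genotype, and a separate vertical axis for each panel. In Col8a1, Sparc probe 2 and Col15a1 probes 1 and 2 both homozygous points sit more than 1 log2 unit below every other point.

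Of 9 probes of the other collagens, 2 fell and none rose in homozygous embryos, and 7 were not called. The share called was 22.2%, against 27.7% of all probes. Col8a1, a short-chain collagen of vessel walls and the corneal endothelial membrane, showed the largest difference of any matrix probe. It read −2.32 and −2.82 in homozygous embryos, −0.23 and −0.26 in heterozygous embryos and −0.39 and −0.35 in wild-type embryos. The homozygous embryos stood −2.20 ± 0.19 from wild type (4.61-fold lower, adjusted p = 0.00116) and −2.33 ± 0.19 from heterozygous embryos (adjusted p = 0.00112), with no overlap. Over the alternatives the difference from wild type ran from −2.46 to −1.76.

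Col14a1, a collagen that binds to the surface of fibrils, gave 2 probes with opposite signs. Probe 1 read 2.03 and 1.55 in homozygous embryos, 1.67 and 1.62 in heterozygous embryos and 1.33 and 1.35 in wild-type embryos, a difference of 0.45 ± 0.18 that was not called (adjusted p = 0.112). Probe 2 read −2.77 and −2.51 in homozygous embryos, −1.78 and −1.80 in heterozygous embryos and −1.84 and −2.07 in wild-type embryos, where both homozygous levels were lowest. Probe 2 fell by 0.69 ± 0.15 against wild type (adjusted p = 0.0216) and by 0.85 ± 0.15 against heterozygous embryos (adjusted p = 0.013). With normexp and the 75th percentile its difference from wild type was −0.27 and not called.

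Col16a1, another fibril-associated collagen, had 3 probes. Probe 1 read 2.39 and 2.30 in homozygous embryos, 3.01 and 2.85 in heterozygous embryos and 2.73 and 2.81 in wild-type embryos. It fell against heterozygous embryos (−0.59 ± 0.13, adjusted p = 0.0252) but missed the threshold against wild type (−0.43 ± 0.13, adjusted p = 0.055). The call against heterozygous embryos was lost in 5 of 14 alternatives. Probes 2 and 3 were above wild type by 0.25 ± 0.15 and 0.70 ± 0.34 without being called (adjusted p = 0.229 and 0.169). Collagen VI forms beaded filaments near basement membranes, and all 3 of its listed chains had positive differences that were not called. Col6a1 read 3.53 and 3.40 in homozygous embryos, 3.37 and 2.97 in heterozygous embryos and 2.96 and 2.82 in wild-type embryos, so that both homozygous levels exceeded all others (0.57 ± 0.17, adjusted p = 0.0528). Col6a1 passed the threshold in 8 of 14 alternatives. Col6a3 differed by 0.50 ± 0.19 (adjusted p = 0.0939) and Col6a2 by 0.13 ± 0.16 (adjusted p = 0.545).

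Elastic fibre and crosslinking genes gave 19 kept probes, of which 2 rose, none fell and 17 were not called in homozygous embryos. The share called was 10.5%, against 27.7% of all probes. Mfap5, a small glycoprotein of microfibrils, read −1.003 and −0.62 in homozygous embryos, −1.12 and −1.24 in heterozygous embryos and −1.76 and −1.76 in wild-type embryos. Its levels in all 4 embryos that carry the allele exceeded both wild-type levels, and the heterozygous mean lay between the others. The homozygous difference from wild type was 0.94 ± 0.16 (1.92-fold higher, adjusted p = 0.00973), and that from heterozygous embryos was 0.37 ± 0.16 (adjusted p = 0.149). Fbn2, the fibrillin that prevails in embryonic microfibrils, rose by its probe 1. That probe read 3.62 and 3.78 in homozygous embryos, 3.17 and 2.89 in heterozygous embryos and 3.03 and 2.86 in wild-type embryos, and the homozygous levels were above all others (0.76 ± 0.16, adjusted p = 0.0169 against wild type, and 0.67 ± 0.16, adjusted p = 0.0286 against heterozygous embryos). The call against heterozygous embryos was lost in 7 of 14 alternatives. Fbn2 probe 2 read −0.88 and −0.24 in homozygous embryos, −0.31 and −0.61 in heterozygous embryos and −0.30 and −0.60 in wild-type embryos. Its genotypes overlapped and the difference was −0.11 ± 0.25 (adjusted p = 0.768).

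Eln, the elastin core of the fibre, read 0.02 and −0.17 in homozygous embryos, −0.001 and −0.43 in heterozygous embryos and −0.48 and −0.54 in wild-type embryos. The homozygous levels exceeded the wild-type levels and overlapped the heterozygous ones, and the difference of 0.44 ± 0.18 from wild type was not called (adjusted p = 0.116). Fbln1, a fibulin of basement membranes and elastic fibres, had 2 probes that were not called. Probe 1 read 0.69 and 0.78 in homozygous embryos, 0.59 and 0.54 in heterozygous embryos and 0.47 and 0.66 in wild-type embryos (0.17 ± 0.13 against wild type, adjusted p = 0.372). Probe 2 read −1.55 and −0.99 in homozygous embryos, −1.57 and −1.63 in heterozygous embryos and −1.70 and −1.70 in wild-type embryos (0.43 ± 0.20, adjusted p = 0.148). Fbn1, Fbln2, Fbln5, Mfap2, Mfap4, Lox, Loxl1 and Loxl2 gave the other 13 probes, none of them called, with differences from wild type between −0.22 and 0.40. Fbn1 differed by 0.03 ± 0.14, and Mfap4 by 0.00 ± 0.14, the smallest difference among the members. The lysyl oxidases Lox, Loxl1 and Loxl2, which crosslink collagen and elastin, lay between −0.22 and 0.21 over 7 probes.

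Of 6 proteoglycan probes 1 rose and 5 were not called in homozygous embryos (16.7% called, against 27.7% of all probes). Lum, a small leucine-rich proteoglycan that spaces collagen fibrils, read 3.69 and 3.85 in homozygous embryos, 3.39 and 3.31 in heterozygous embryos and 3.15 and 3.24 in wild-type embryos, with both homozygous levels above all others. It rose by 0.57 ± 0.13 against wild type (1.49-fold, adjusted p = 0.0239) and was not called against heterozygous embryos (0.42 ± 0.13, adjusted p = 0.0657). Dcn, its close relative decorin, read 3.86 and 3.99 in homozygous embryos, 4.00 and 3.84 in heterozygous embryos and 3.72 and 3.80 in wild-type embryos, and the genotypes lay close together (0.16 ± 0.13, adjusted p = 0.4). Bgn, biglycan, read −2.88 and −2.39 in homozygous embryos, −2.57 and −2.85 in heterozygous embryos and −2.95 and −2.95 in wild-type embryos (0.31 ± 0.20, adjusted p = 0.274). Vcan, the large proteoglycan versican of loose embryonic matrix, had 3 probes that were not called. Probe 1 read 3.10 and 3.26 in homozygous embryos, 2.99 and 2.86 in heterozygous embryos and 3.10 and 2.94 in wild-type embryos, probe 2 read 1.74 and 1.65 in homozygous embryos, 1.69 and 1.42 in heterozygous embryos and 1.59 and 1.59 in wild-type embryos, and probe 3 read −4.86 and −4.34 in homozygous embryos, −4.51 and −4.38 in heterozygous embryos and −4.31 and −4.34 in wild-type embryos. Their differences from wild type were 0.17 ± 0.14, 0.11 ± 0.14 and −0.27 ± 0.19 (adjusted p = 0.397, 0.606 and 0.319).

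Among 8 glycoprotein probes 1 rose, 2 fell and 5 were not called in homozygous embryos (37.5% called, against 27.7% of all probes). Sparc, osteonectin, a collagen-binding glycoprotein that also enters basement membranes, had 2 probes that differed widely from each other. Probe 2 read 2.66 and 2.19 in homozygous embryos, 4.38 and 4.22 in heterozygous embryos and 4.28 and 4.24 in wild-type embryos. It fell by 1.84 ± 0.18 against wild type (3.58-fold, adjusted p = 0.00192) and by 1.88 ± 0.18 against heterozygous embryos (adjusted p = 0.00198). Probe 1 read 5.09 and 5.05 in homozygous embryos, 4.93 and 4.77 in heterozygous embryos and 4.81 and 4.77 in wild-type embryos, with homozygous levels the highest and a difference of 0.29 ± 0.13 that was not called (adjusted p = 0.143). The 2 probes lay 2.12 log2 units apart in their difference from wild type, the widest gap among the 16 genes with several kept probes.

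Tnc codes for tenascin-C, a glycoprotein of condensing mesenchyme and developing tendon. Probe 1 read −3.55 and −3.17 in homozygous embryos, −2.73 and −2.80 in heterozygous embryos and −2.88 and −3.04 in wild-type embryos, and probe 2 read −5.61 and −5.50 in homozygous embryos, −5.13 and −5.09 in heterozygous embryos and −5.03 and −5.09 in wild-type embryos. Homozygous levels were the lowest on both probes. Against wild type probe 2 fell (−0.50 ± 0.13, adjusted p = 0.0304) and probe 1 was not called (−0.40 ± 0.17, adjusted p = 0.121), while both fell against heterozygous embryos (adjusted p = 0.048 and 0.0475). The call of probe 1 against heterozygous embryos was lost in 9 of 14 alternatives and that of probe 2 in 10 of 13, among them leaving out either heterozygous or either wild-type array. Against wild type the call of probe 2 was lost in 7 of 13 alternatives, and its sign turned in 1 more. With normexp and the 75th percentile probe 2 changed sign, to 0.08 against wild type and 0.25 against heterozygous embryos, and was not called. Thbs2, thrombospondin-2 of mesenchyme and cartilage, read −1.18 and −0.57 in homozygous embryos, −1.19 and −1.25 in heterozygous embryos and −1.57 and −1.70 in wild-type embryos, and rose by 0.76 ± 0.21 (1.69-fold, adjusted p = 0.0419). Its homozygous and heterozygous levels exceeded both wild-type levels, but the call was lost in 8 of 14 alternatives, with differences from 0.45 to 1.06. Thbs1, its relative known as an activator of TGF-beta, read 3.15 and 3.06 in homozygous embryos, 2.95 and 2.82 in heterozygous embryos and 2.88 and 2.77 in wild-type embryos (0.28 ± 0.13, adjusted p = 0.151). Fn1, fibronectin, differed by 0.25 ± 0.13 (adjusted p = 0.188) and Postn, periostin, by −0.02 ± 0.13 (adjusted p = 0.934).

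Most of the 19 basement membrane probes had lower levels in homozygous than in wild-type embryos, though few were called and no test was made of the group. None rose, 4 fell and 15 were not called, the median difference from wild type was −0.22, and 14 of 19 were negative. Of the 4, Col15a1 probe 3 was kept only through the heterozygous and wild-type embryos, where it was high. The share of positive differences was 26.3%, against 55.8% of all kept probes. The medians of the other 5 roles lay between 0.10 and 0.32, and that of all kept probes was 0.08. Several genes counted more than once, Col15a1 with 3 probes. With only the brightest probe of each gene the basement membrane median was −0.16, with 8 of 12 negative. With normexp and the 75th percentile the basement membrane median was −0.11, with 12 of 19 negative. It was −0.07 without homozygous replicate 1, −0.07 without wild-type replicate 1 and −0.32 without wild-type replicate 2. The share called, 21.1%, was below the 27.7% of all probes. Relative to the wild-type mean the median over these 19 probes was −0.16 and −0.07 for homozygous, 0.23 and 0.07 for heterozygous and 0.02 and −0.02 for wild-type embryos. Between homozygous and heterozygous embryos 3 fell and none rose, a share called of 15.8%, against 22.7% of all probes (13.1% lower). The median was −0.37, against 0.07 over all kept probes. The basement membrane median there was −0.11 with normexp and the 75th percentile, with 11 of 19 negative. It was −0.22 without either homozygous replicate and −0.20 without heterozygous replicate 1.

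Col15a1, a collagen of the outer face of basement membranes in muscle and capillaries, fell on probes 1 and 2. Probe 3 was also called lower, but the filter kept it only through the heterozygous and wild-type embryos, where it was high. Its call therefore adds no support. Probe 1 read −5.34 and −5.56 in homozygous embryos, −3.13 and −3.28 in heterozygous embryos and −3.42 and −3.49 in wild-type embryos. Probe 2 read −5.35 and −5.83 in homozygous embryos, −3.61 and −3.79 in heterozygous embryos and −3.89 and −3.93 in wild-type embryos. On both probes the homozygous levels lay more than 1 log2 unit below every other level, with differences from wild type of −1.99 ± 0.14 (3.97-fold lower, adjusted p = 0.000773) and −1.68 ± 0.19 (3.21-fold lower, adjusted p = 0.0025). Against heterozygous embryos they were −2.24 ± 0.14 and −1.89 ± 0.19 (adjusted p = 0.000611 and 0.00203). These were dim probes, and probe 2 was well above background in 1 of the 2 homozygous embryos, so its fold rests partly on a level near background. With normexp and the 75th percentile the differences from wild type were −0.50 and −0.38, still called. Probe 3 read −6.69 and −8.13 in homozygous embryos, −5.75 and −6.10 in heterozygous embryos and −5.90 and −5.73 in wild-type embryos and was not well above background in either homozygous embryo, so that only a bound holds there, at least 1.25-fold lower than wild type (adjusted p = 0.0386). With normexp and the 75th percentile the sign of probe 3 turned, to 0.09, and in 7 more of 12 alternatives its call was lost. Those include dropping the filter on dim probes and leaving out either wild-type or either heterozygous replicate.

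Lama2 codes for the laminin alpha chain of muscle and nerve sheaths. Probe 1 read −0.46 and −0.63 in homozygous embryos, 0.48 and 0.35 in heterozygous embryos and 0.24 and 0.32 in wild-type embryos. It fell by 0.83 ± 0.14 against wild type (1.77-fold, adjusted p = 0.00825) and by 0.96 ± 0.14 against heterozygous embryos (adjusted p = 0.00605), with no overlap. Probe 2 read −0.68 and −0.36 in homozygous embryos, −0.32 and −0.57 in heterozygous embryos and −0.08 and −0.61 in wild-type embryos, and its genotypes overlapped (−0.18 ± 0.22, adjusted p = 0.577). The laminin chains shared by most basement membranes lay on the other side. Lamb1 read 3.76 and 3.77 in homozygous embryos, 3.54 and 3.43 in heterozygous embryos and 3.36 and 3.37 in wild-type embryos, with homozygous levels above all others (0.41 ± 0.12, adjusted p = 0.0525). Lamc1 read 2.34 and 2.30 in homozygous embryos, 2.13 and 1.78 in heterozygous embryos and 1.86 and 1.74 in wild-type embryos, again with homozygous levels highest (0.51 ± 0.16, adjusted p = 0.0548). Neither was called. Lama1, the alpha chain of the earliest embryonic basement membranes, differed by −0.50 ± 0.18 (adjusted p = 0.0875), and Lama4, that of vessels, by 0.06 ± 0.15 (adjusted p = 0.785).

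Col4a1 and Col4a2, the main chains of collagen IV, differed from wild type by 0.19 ± 0.16 and −0.22 ± 0.19 (adjusted p = 0.394 and 0.41). Their genes start 21 bases apart on opposite strands in the RefSeq table, and their windows overlap by 78 bases. Both probes of Col18a1, the collagen whose end fragment is endostatin, were lower without being called (−0.40 ± 0.20 and −0.34 ± 0.27). Both probes of Hspg2, perlecan, were likewise lower and not called (−0.33 ± 0.21 and −0.22 ± 0.21). Nid1 and Nid2, the nidogens that link laminin to collagen IV, gave 4 probes between −0.11 and 0.31, none called. The spot of Nid1 probe 2 in homozygous replicate 1 was marked as an outlier and left out, so its value there rests on 1 homozygous embryo.

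**Figure D3:**
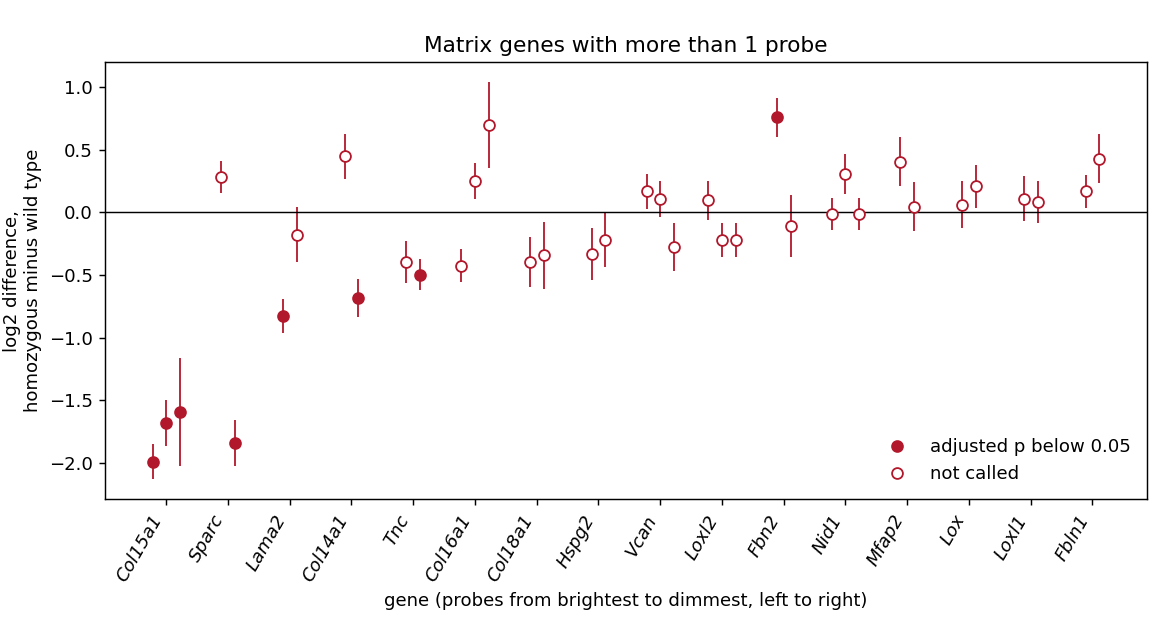
Difference in log2 level between homozygous and wild-type embryos (vertical axis, point with standard error) for each probe of the 16 genes with several kept probes, ordered by their lowest probe and filled where called. All 3 Col15a1 probes lie below 0 and are called, while the Sparc probes lie 2.12 units apart. The dimmest Col15a1 probe was kept only through the heterozygous and wild-type embryos.

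Probes of the same gene often did not move alike. Of the 16 genes with 2 or 3 kept probes, all probes had the same sign in 9 for homozygous against wild type, 11 for heterozygous against wild type and 9 for homozygous against heterozygous. The median spread between the probes of a gene was 0.34 for homozygous against wild type, 0.10 for heterozygous against wild type and 0.40 for homozygous against heterozygous. Among the 6 such genes with a call between homozygous and wild-type embryos, Col15a1 was the one in which every probe was called. Its probe 3, however, was kept only through the heterozygous and wild-type embryos, where it was high. The call of Col15a1 probe 3 was lost in 7 of 12 alternatives, and its sign turned in 1 more. No gene had probes called in opposite directions. Another 30 genes rest on 1 kept probe, among them Col5a2, Col5a3, Col8a1, Mfap5, Lum and Thbs2.

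**Figure D4:**
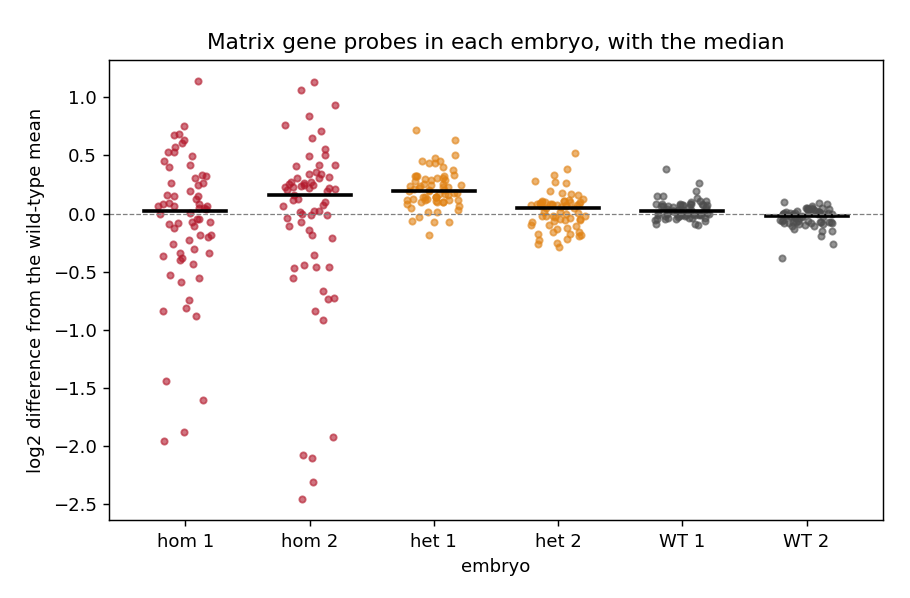
Difference in log2 level from the wild-type mean for each kept matrix probe (points) in each embryo (across), with the median over probes as a black line. The medians are 0.02 and 0.16 in homozygous, 0.20 and 0.05 in heterozygous and 0.02 and −0.02 in wild-type embryos, and the points spread most in the homozygous embryos.

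Embryos of the same genotype differed as well. The median gap between replicates over the matrix probes was 0.21 in homozygous, 0.15 in heterozygous and 0.09 in wild-type embryos, where all kept probes gave 0.25 in homozygous, 0.17 in heterozygous and 0.11 in wild-type embryos. A gap above 0.5 occurred in 10 matrix probes of homozygous, 3 of heterozygous and 2 of wild-type embryos. The widest gap among homozygous embryos was 1.43, in Col15a1 probe 3. The widest among heterozygous embryos was 0.71, in Col16a1 probe 3.

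Genes that make, modify, bind or cut the matrix were counted in 5 further lists with the same test. Of 35 kept probes of 25 collagen processing genes, 2 rose and 6 fell in homozygous against wild-type embryos. They included P4ha1, a subunit of collagen prolyl hydroxylase (−1.07 ± 0.14, adjusted p = 0.00433, while its other probe differed by −0.003), Adamts2, which removes procollagen ends (−0.86 ± 0.14, adjusted p = 0.00755), and Pcolce2, an enhancer of such cleavage (−1.26 ± 0.22, adjusted p = 0.00944). Among 27 probes of 19 further basement membrane genes, 1 rose and 5 fell, and their median difference was positive, 0.07 against wild type and 0.01 against heterozygous embryos, unlike that of the 19 member probes. Lama3, a laminin chain of epithelia, fell on 2 probes (−0.76 ± 0.15, adjusted p = 0.0153, and −0.66 ± 0.17, adjusted p = 0.0308), and 1 Col4a4 probe fell (−1.25 ± 0.25, adjusted p = 0.0149). The Col4a4 probe was not well above background in homozygous embryos, which makes it at least 1.57-fold lower. Of 15 probes of 11 further elastic fibre genes, Emilin2 (0.71 ± 0.14, adjusted p = 0.0138) and Ltbp4 (0.72 ± 0.18, adjusted p = 0.0302) rose and none fell.

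Matrix receptors gave 31 probes of 24 genes, of which 6 rose and 2 fell. Cd44, the receptor for hyaluronan, rose (1.33 ± 0.13, adjusted p = 0.00189) on 1 of its 3 kept probes, Itga6, a laminin-binding integrin chain, rose (0.58 ± 0.13, adjusted p = 0.0241), and Sdc3, a cell surface proteoglycan, fell (−1.25 ± 0.14, adjusted p = 0.00257). Of 22 probes of 18 matrix proteases and inhibitors, 1 rose and 4 fell. Timp4, an inhibitor of metalloproteinases, rose (0.90 ± 0.15, adjusted p = 0.00872), while Adamts5, which cuts aggrecan and versican (−0.69 ± 0.13, adjusted p = 0.0129), and Mmp14, a membrane-bound collagenase (−0.66 ± 0.16, adjusted p = 0.0269), fell. No probe of these 5 lists was called between heterozygous and wild-type embryos. The share called in homozygous against wild-type embryos was between 13.3% and 25.8% over the 5 lists, below that of all probes in each.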

How the data were processed

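The scanner files give intensity per spot, which Feature Extraction 11.0.1.1 had corrected for background and spatial trend array by array but not scaled between arrays, per the file headers (the submitters' processing notes name the same tool). The array was annotated to mm9. A second table deposited by the authors holds log2 values, whose median is 6.72 in each array and whose correlation with the matching scanner intensities is at least 0.995. The method of that normalization is not given in the sources used here.

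Control spots (1377 of 44397) and outlier-marked spots were removed, and repeated spots of a probe averaged. Saturation was not reached by any spot. From the log2 processed intensity the array's 75th percentile over gene spots was subtracted. Probe accessions were matched to symbols through a RefSeq gene table of GRCm38.p6, used for names and promoter windows, which named 27234 of 39429 probes (69.1%). Named or not, 29905 of the 39429 probes were kept. Genotype was fitted over the 6 arrays with limma 3.58.1 (R 4.3.3), leaving 3 residual and 3.37 prior degrees of freedom. The fit was also run on simulated probes that had the same spread in every genotype. Homozygous replicates differed more here, with a median gap of 0.25 against 0.11 in wild type. That run therefore cannot vouch for the homozygous comparisons. Only 2 arrays per genotype limit the precision. Below background, a fold is given as a bound from the dimmest probes well above background on each array.

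Genotypes and replicate numbers came from the sample titles. One label field calls wild type a mutant and the extraction protocol names tumor tissue, and the titles were followed. The members, lists and tests were chosen with earlier results of these data known. Full values are given for up to 4 members of each role with the smallest p between homozygous and wild-type embryos, and up to 3 called probes are named per further list. Col1a1 and other members outside that rule are given as ranges or single differences, some singled out after their values were seen. The alternatives were normexp correction (offset 50) with percentile or quantile scaling, the deposited log2 table, other filters on dim probes, 1 probe per gene, each array left out, a replicate block, a fit of 2 genotypes alone and a minimum change of 1.5-fold. Normexp was run on the median spot signal, a departure from the plan, which had named the mean signal.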

Additional observations from a re-analysis of the deposited data

How the results depend on the processing

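For homozygous against wild type, 5 matrix probes were called higher, against 9 with normexp and the 75th percentile, 8 with normexp and quantile scaling, 8 with the deposited log2 table, 3 with no filter on dim probes, 8 with probes well above background on all 6 arrays, and 0 to 8 with 1 array left out (0 without wild-type replicate 1 or 2, 8 without homozygous replicate 1). The 9 called lower became 4 with the brightest probe of each gene and 4 to 12 with 1 array left out (4 without wild-type replicate 1 or 2). For homozygous against heterozygous, the 1 called higher became 5 with normexp and the 75th percentile, 2 with normexp and quantile scaling, 0 with no filter, 0 with these 2 genotypes alone and 0 to 6 with 1 array left out. The 10 called lower became 6 with the brightest probe and 5 to 12 with 1 array left out (5 without heterozygous replicate 1, 6 without heterozygous replicate 2). The counts for heterozygous against wild type were 0 in every alternative. Called differences of named probes turned sign, with normexp and the 75th percentile, in Col15a1 probe 3 (0.089 against wild type) and Tnc probe 2 (0.078 against wild type, 0.247 against heterozygous); the cause was not tested. The median difference over members ranged, with 1 array left out, from 0.02 to 0.16 for homozygous against wild type, 0.05 to 0.20 for heterozygous against wild type and −0.13 to 0.08 for homozygous against heterozygous.

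With a replicate block the counts were 4 higher and 9 lower against wild type, and 1 higher and 9 lower against heterozygous. Deviations of replicate 1 from its genotype mean correlated by 0.29 for homozygous with heterozygous and −0.16 for homozygous with wild type. For heterozygous with wild type the correlation was −0.002. As the 3 correlations differed in sign, the numbers were not taken to pair the embryos. Under the block Col5a3 and Thbs2 were no longer called against wild type, nor either Tnc probe against heterozygous. Over the alternatives of named differences that were called, 262 values kept sign and call, 73 lost the call and 3 turned sign. Of those not called, 41 values gained a call and 49 turned sign. Low signal limits the dim probes, such as those of Col15a1 and Tnc.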
